A study of Mus musculus with 6 samples.

Results

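Cells carrying at least 1 UMI of the tdTomato transcript were examined among sorted TSLP-tdTomato+ cells of the mouse intestinal lamina propria. A UMI is the molecular tag that marks 1 captured transcript. A barcode was kept as a cell when it held 1000 to 7500 genes, 2500 to 40000 UMIs on genes and under 10% mitochondrial UMIs. The rule found 3011 members among 102534 kept cells, a share of 2.94% (exact 95% binomial interval 2.83% to 3.04%). The members were chosen by their tdTomato UMIs, so tdTomato levels are given below as a description with no test. All other cells of the sort, with 0 tdTomato UMIs, were the pool from which comparison cells were drawn.

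The cells came from Flare-TSLP mice on a C57BL/6 background, female and male and 8 to 12 weeks old, which carried no other allele and received no treatment that the sources name for these samples. In these mice a cassette with an internal ribosome entry site and the red fluorescent protein tdTomato follows the coding sequence of the Tslp gene. The mouse line came from 1 targeted embryonic stem cell clone, and the number of reporter alleles per mouse is not given in the sources used here. Of the 6 libraries, 2 came from the proximal small intestine (proximal jejunum), 2 from the distal small intestine (distal ileum) and 1 each from cecum and large intestine. Per-library values are given in the order proximal small intestine replicates 1 and 2, distal small intestine replicates 1 and 2, cecum and large intestine. Each library held cells with 3 hashtag antibodies that the labels do not tie to mice. A library was therefore 1 sample, and p-values measure the spread between libraries, which may share mice. No library of non-reporter mice or of tdTomato-negative cells was analysed here.

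TSLP is a cytokine of barrier tissues that acts, with the alarmins IL-33 and IL-25, on group 2 innate lymphoid cells and other cells of type 2 immunity. In the intestine stromal cells are among its sources. PDGFRα+ fibroblasts under the epithelium include telocytes and other subepithelial fibroblasts, which secrete BMP ligands, and trophocytes around the crypt base, which secrete the BMP antagonist gremlin 1 and R-spondins and so sustain the stem cell niche. Lymphatic endothelial cells, marked by the transcription factor PROX1, line the lacteals and the submucosal lymph vessels. The tdTomato protein is stable and bright, whereas its messenger RNA is seen in a droplet library only when 1 of its copies is captured.

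The libraries held between 109675337 and 206827504 UMIs on genes and between 11751 and 21299 kept cells. Any pair of libraries shared between 38 and 118 kept barcodes. Scrublet called 4.90% to 11.3% of the kept cells of a library doublets, and 8.39% to 13.8% carried more than 1 hashtag. Such cells were retained, and the comparisons were repeated without them. Since reads can share a PCR origin and libraries can share mice, the Poisson and binomial intervals given here cover counting error only.

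The tdTomato transcript was rare in every library. There were 407, 247, 897, 347, 612 and 501 members, which made up 2.36%, 1.38%, 4.21%, 1.71%, 4.39% and 4.26% of the kept cells. Distal small intestine replicate 1, the cecum and the large intestine thus stood above the other small intestinal libraries, and the replicates of each small intestinal region did not match. After each cell had been thinned to 2500 UMIs, the shares were 0.703%, 0.370%, 1.34%, 0.472%, 1.79% and 1.15%, in the same order except that distal small intestine replicate 1 stood above the large intestine. Within a library, the shares also varied among the cells led by each of the 3 hashtags. These shares ran from 1.91% to 2.56% and from 1.24% to 1.54% in proximal small intestine replicates 1 and 2. In distal small intestine replicates 1 and 2 they ran from 3.68% to 4.63% and from 1.32% to 1.94%. In the cecum they ran from 4.11% to 4.66% and in the large intestine from 3.57% to 5.02%. The libraries that shared a hashtag set with the cecum and the large intestine were the replicate 1 libraries.

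Nearly every member sat just inside the rule. Of the 3011 members, 2714 held 1 tdTomato UMI, 252 held 2 and 45 held 3 or more, while a cell just outside it held 0. The members' median depth was 9094 UMIs against 8090 in the cells with no tdTomato UMI. Per library, the mean of the medians was 9564 ± 1595 (SD, n = 6) in members and 8209 ± 931 in the other cells, higher in 6 of 6 libraries (two-sided exact sign-flip permutation test over libraries, p = 0.03125, the smallest that 6 libraries allow, adjusted p = 0.109). A deeper cell has more chances of yielding a tdTomato UMI, so the comparison cells below were matched to members for total UMIs within the library.

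Free RNA held the reporter transcript as well. Barcodes with at most 100 UMIs held 2.90% to 3.82% of a library's UMIs, and in them tdTomato stood at 4.14, 0.645, 8.23, 2.64, 7.64 and 4.43 CPM (UMIs scaled to a total of 1000000 UMIs on genes). Over all kept cells the levels were 2.88, 1.52, 5.68, 2.10, 6.65 and 4.89 CPM. The level in these near-empty barcodes followed the level in cells from library to library and exceeded it in 4 of 6. The part of free RNA in single members was not tested. Kept cells contained 91.9% to 96.0% of all tdTomato UMIs of a library.

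**Figure D1:**
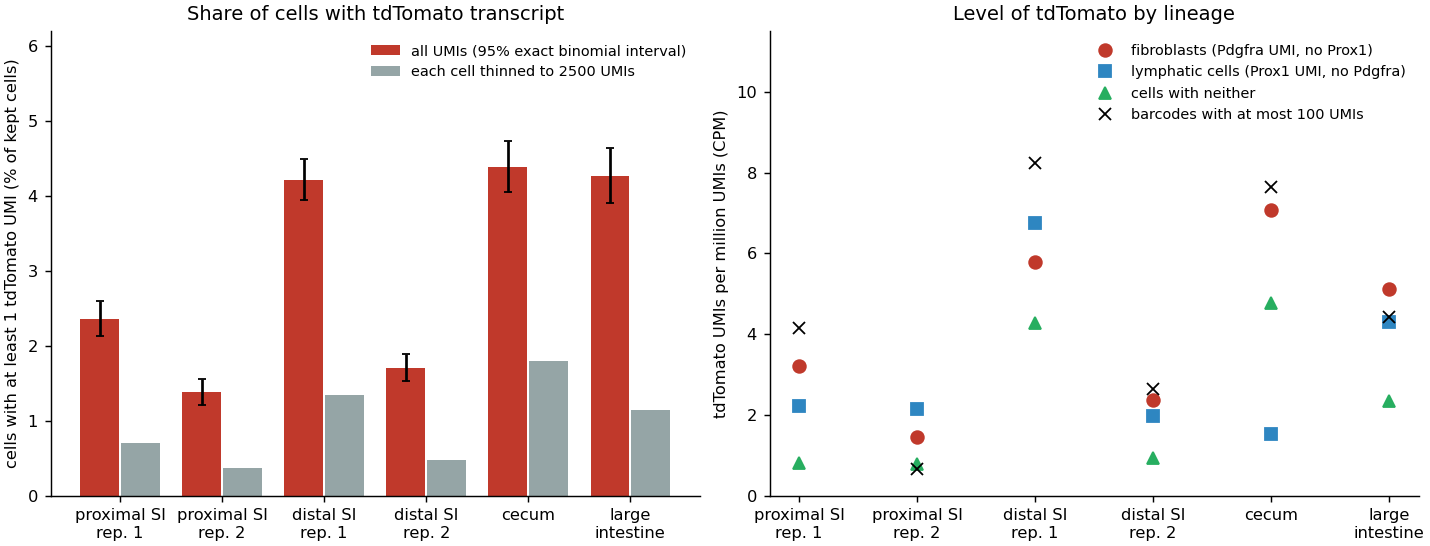
Left: percent of kept cells with at least 1 tdTomato UMI in each library, with exact 95% binomial intervals (red), and the percent after each cell was thinned to 2500 UMIs (gray). Right: tdTomato UMIs per 1000000 gene UMIs (CPM) in fibroblasts, lymphatic cells and cells with neither marker, and in barcodes with at most 100 UMIs. Distal small intestine replicate 1, the cecum and the large intestine have the highest shares, at 4.21% to 4.39%, and cells with neither marker lie below fibroblasts in every library.

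Most members were fibroblasts by the marker rule. Cells with a UMI of Pdgfra, the PDGF receptor of fibroblasts, and none of Prox1 made up 2498 members (83.0%). Cells with Prox1 and no Pdgfra made up 185 (6.14%), cells with both 171 (5.68%) and cells with neither 157 (5.21%). The lymphatic members were unevenly placed, with 34, 65, 14, 62, 2 and 8 in the 6 libraries. Among all kept cells, 3.53% of 70780 fibroblasts, 1.23% of 15055 lymphatic cells, 2.69% of 6358 cells with both markers and 1.52% of 10341 cells with neither held a tdTomato UMI. The cells with both markers were deeper, with a median of 12150 UMIs among those without tdTomato.

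The same order held within libraries for fibroblasts and marker-negative cells. In fibroblasts tdTomato stood at 3.20, 1.44, 5.79, 2.37, 7.07 and 5.11 CPM and in cells with neither marker at 0.816, 0.783, 4.27, 0.937, 4.77 and 2.34 CPM. In lymphatic cells it stood at 2.23, 2.15, 6.76, 1.97, 1.53 and 4.29 CPM, above the fibroblasts in proximal small intestine replicate 2 and distal small intestine replicate 1 and below them in the other libraries. The value of distal small intestine replicate 1 rested on 35 UMIs in 14 cells, 16 of them in 1 cell. Without cells of 10 or more tdTomato UMIs, an alternative added after seeing the data, lymphatic cells stood at 3.68 against 5.79 CPM in that library and at 1.65 against 1.44 CPM in proximal small intestine replicate 2. Against 5 UMI-matched cells of any lineage per member, cells with neither marker made up 4.79% ± 2.16 of members and 8.76% ± 2.61 of comparison cells (SD, n = 6), lower in 6 of 6 libraries (two-sided exact sign-flip test, p = 0.03125, adjusted p = 0.125 over 4 shares). Fibroblasts made up 78.5% ± 14.9 against 73.2% ± 14.9, higher in 5 of 6 libraries (exact p = 0.0625, adjusted p = 0.125). Neither share passed the threshold after adjustment. With 6 libraries, a single share at the smallest p cannot pass when 4 shares are adjusted together.

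The members were then placed among 19 clusters, made without the tdTomato and Tslp genes and named by markers or leading genes. Over pooled libraries the highest share was found in Ptn Tmem229a cells, a Pdgfra-positive cluster led by Ptn, Tmem229a, Gm4956 and Adra1a, of whose 3904 cells 377 (9.66%) were members. Tmem229a stood at 149 to 289 CPM in this cluster in the 6 libraries and at 1.47 to 2.59 CPM in the other cells. Adra1a stood at 255 to 495 CPM in the cluster. Not all leading genes held across regions. Ptn stood at 1051 to 1815 CPM in the small intestinal libraries, 363 CPM in the cecum and 1019 CPM in the large intestine. Gm4956 stood at 182 to 438 CPM in the small intestine and at 42.7 and 39.0 CPM in the cecum and large intestine. There it was found in 20.4% and 27.2% of the cluster's cells. In this cluster tdTomato stood at 14.3 CPM over all libraries, at 24.7 CPM in the cecum, at 15.6 CPM in the large intestine, and at 3.46 to 8.23 CPM in the small intestinal libraries. The trophocyte-like cells, led by Alk, Adgrb3 and Grem1 and found almost entirely in the small intestine, gave the largest group of members, 931 of 15378 cells (6.05%, 6.85 CPM). They supplied 46.9%, 36.8%, 60.4% and 29.1% of the members of the small intestinal libraries and 24.8%, 14.9%, 30.9% and 8.67% of the cells. Within these libraries 4.45%, 3.40%, 8.24% and 5.73% of trophocyte-like cells were members, against 2.76% to 4.70% of Ptn Tmem229a cells, the latter from 7 to 30 members. In both distal libraries trophocyte-like cells thus had the higher share, and the pooled share of Ptn Tmem229a cells was carried by the large bowel (12.8% in the cecum).

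Universal fibroblast-like cells, led by Has1, Igfbp6 and Pi16, held 379 members (4.17% of 9089, 5.34 CPM), most of them in the cecum and large intestine. Telocyte-like cells, led by Sox6, Il1rl1, Nrg1, Procr and Bmp3, held 209 (4.31% of 4850, 5.23 CPM). In the large intestine these 3 clusters, universal fibroblast-like, telocyte-like and Ptn Tmem229a cells, supplied 25.0%, 30.3% and 24.8% of the members and 17.2%, 30.6% and 8.09% of the cells. In the cecum they supplied 36.1%, 6.70% and 31.5% of the members and 41.8%, 6.26% and 10.8% of the cells, so universal fibroblast-like cells exceeded their share of cells in the large intestine and not in the cecum. The Vwc2 Dkk2 cells were the largest fibroblast cluster, with 23.6% of all cells and 13.8% of all members (1.72% of 24205, 2.07 CPM). The Ccl8 Postn cells of the large bowel held 212 members (2.41% of 8801, 3.07 CPM), and SEMF-like cells (named after subepithelial myofibroblasts) held 105 (1.13% of 9274, 1.33 CPM). Most lymphatic members fell into LEC-like A (116 of the 185), led by Apold1, Depp1 and Rapgef5, and LEC-like B (62), led by Tll1, D5Ertd615e and Pld5. The same 7 of 8 lymphatic markers, among them Lyve1, Mmrn1 and Reln, were raised in both clusters.

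Immune and blood endothelial clusters were taken as the background for these shares, though nearly all of their members also held a Pdgfra UMI. They had 14 blood endothelial-like, 12 myeloid and B cell-like, 4 plasma cell-like and 7 T cell or ILC-like members. Only 1 of these, a T cell or ILC-like cell, held no Pdgfra. Among all cells of these clusters Pdgfra was found in 26.6%, 39.1%, 29.5% and 25.5%. The part of barcodes with mixed RNA in these shares was not tested. A tdTomato UMI was found in 0.421% of plasma cell-like cells (0.310 CPM, median depth 15659 UMIs), 0.755% of blood endothelial-like cells (0.894 CPM, 7482 UMIs), 1.08% of T cell or ILC-like cells (1.38 CPM) and 1.04% of myeloid and B cell-like cells (1.38 CPM). LEC-like B at 0.998% (median depth 5809.5 UMIs) and SEMF-like cells at 1.13% (8892.5 UMIs) lay near the T cell or ILC-like and the myeloid and B cell-like clusters and above plasma cell-like cells. LEC-like A at 1.42% (6191 UMIs) and 3.08 CPM stood above the immune and blood endothelial clusters over pooled libraries, also at equal depth. Within libraries its share was not above all of them. In distal small intestine replicate 2 it was 1.21%, against 1.66% in myeloid and B cell-like cells and 1.71% in plasma cell-like cells. T cell or ILC-like cells (4.17% against 2.31%, from 6 and 8 members) stood above it in distal small intestine replicate 1, as did myeloid and B cell-like cells in the cecum (2.99% against 1.43%, from 2 members each). Of the other clusters outside the fibroblast clusters, pericyte-like cells stood at 1.59% (2.61 CPM, 0.527% at 2500 UMIs), level with LEC-like A. Epithelial and cycling cells stood above it at 5.25% (3.74 CPM, 1.02% at 2500 UMIs). Of their 26 members, 20 held Pdgfra only, 4 Prox1 only and 2 both, so all carried a marker of the sorted lineages. Prox1 Pdgfra mixed cells stood at 2.86% (2.02 CPM, 0.505% at 2500 UMIs). Ptn Prox1 mixed cells stood at 3.37% (0.522% at 2500 UMIs), from 3 members. At 2500 UMIs per cell the shares were 3.86% in Ptn Tmem229a cells, 1.82% in trophocyte-like, 1.33% in universal fibroblast-like, 1.29% in telocyte-like, 0.533% in LEC-like A, 0.370% in LEC-like B, 0.294% in myeloid and B cell-like, 0.284% in SEMF-like, 0.246% in T cell or ILC-like, 0.143% in blood endothelial-like and 0.0715% in plasma cell-like cells. Since clusters differed in gene content by construction, no test was made between them.

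Tslp and its reporter varied together across clusters. Ptn Tmem229a cells were the highest in Tslp at 5.65 CPM, followed among clusters of at least 500 cells by trophocyte-like cells at 2.96 CPM and universal fibroblast-like cells at 2.05 CPM, over pooled libraries. As means over libraries, telocyte-like cells came second (3.25 CPM). SEMF-like cells stood at 0.844 CPM and blood endothelial-like cells at 0.168 CPM. Over the 16 clusters with values in at least 2 libraries, the mean levels of the transcripts gave Pearson's r = 0.970 and Spearman's rho = 0.926. This is a description, since the clusters share the same libraries, free RNA and depth.

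**Figure D2:**
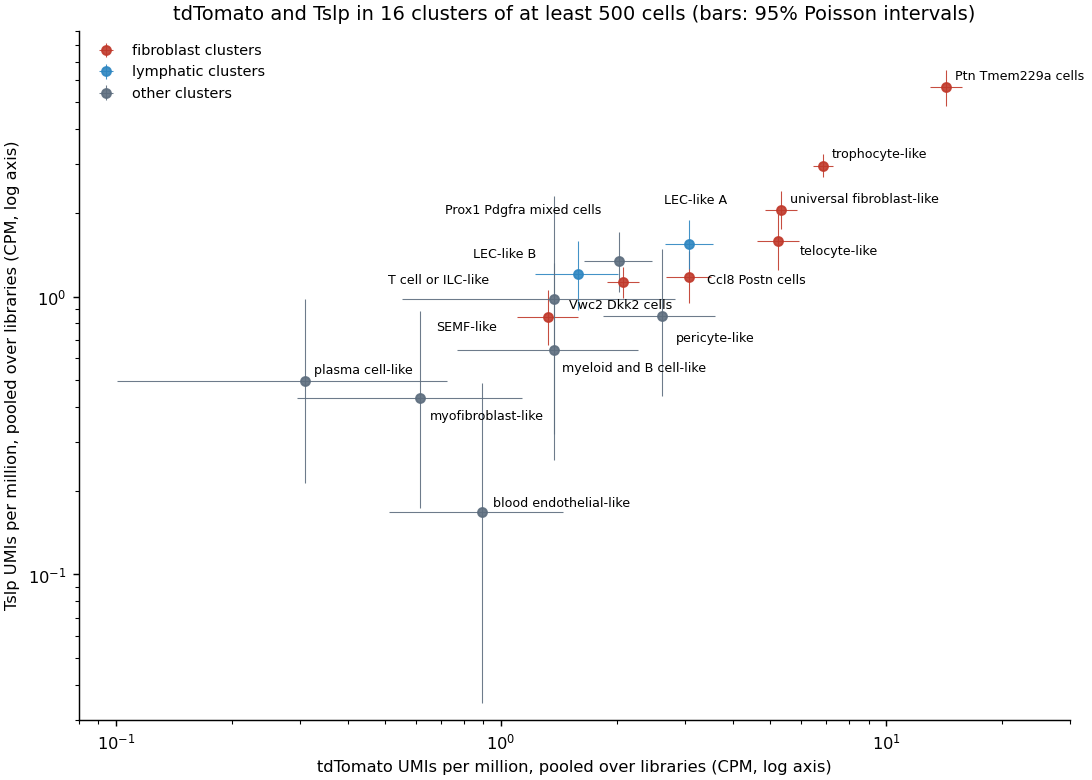
tdTomato (x axis) and Tslp (y axis) in UMIs per 1000000 gene UMIs (CPM), pooled over libraries, both on log axes, in 16 clusters of at least 500 cells, with 95% Poisson intervals. Red points are fibroblast clusters, blue lymphatic and gray other clusters. Ptn Tmem229a cells lie highest on both axes (14.3 and 5.65 CPM), and plasma cell-like, myofibroblast-like and blood endothelial-like cells lie lowest.

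A few cells carried many copies of the reporter transcript. Only 5 of the 3011 members held 10 or more tdTomato UMIs, with 10, 11, 13, 14 and 16, while the next highest cell held 6 and 14 cells held 4 to 6. Of the 5, 4 were LEC-like A cells, from both proximal and distal libraries, and 1 was a SEMF-like cell of proximal small intestine replicate 1. At least 1 Tslp UMI was present in 4 of the 5. Scrublet called none of them a doublet, and the cell with 16 UMIs carried 2 hashtags. The 4 LEC-like A cells held 50 of the 193 tdTomato UMIs of their cluster, whose level was 3.08 CPM with them and 2.28 CPM without them.

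Within fibroblasts, members held more Tslp transcript than other sorted fibroblasts of the same depth. Members of the 6 libraries stood at 8.73, 3.67, 6.15, 6.11, 9.84 and 7.48 CPM of Tslp, and the 5 UMI-matched fibroblasts per member with no tdTomato UMI stood at 1.98, 0.419, 2.23, 0.919, 1.78 and 2.06 CPM. The lowest member library lay above the highest comparison library, so the groups did not overlap. The means were 7.0 ± 2.19 and 1.56 ± 0.725 CPM (SD, n = 6), and the mean log2 ratio was 2.30 ± 0.60, or 4.92-fold (two-sided exact sign-flip permutation test, p = 0.03125, the smallest that 6 libraries allow). At least 1 Tslp UMI was found in 164 of 2498 members (6.57%) and in 212 of 12490 comparison cells (1.70%). These counts rested on 183 and 230 Tslp UMIs, or 7.21 CPM (95% Poisson interval 6.2 to 8.33) and 1.81 CPM (1.59 to 2.06). In barcodes with at most 100 UMIs Tslp stood at 0.690, 0.645, 2.30, 0.879, 2.71 and 2.22 CPM, from 4 to 14 UMIs per library. That was below the members in every library. It was above the comparison fibroblasts in all but proximal small intestine replicate 1 and distal small intestine replicate 2. The part of free RNA in the Tslp UMIs was not tested.

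The fit across all genes gave a like value. In edgeR's quasi-likelihood test on summed UMIs with library as a block, Tslp was 4.43-fold higher in fibroblast members (log2 fold change 2.15 ± 0.21 SE, adjusted p = 0.00135). When the comparison cells were drawn from the same cluster as well, it was 3.26-fold higher (1.71 ± 0.22, adjusted p = 0.00190), in 6 of 6 libraries. The reporter cassette ends in its own polyadenylation signal, and the libraries were read from the 3′ end of transcripts. Whether the Tslp UMIs came from the reporter allele or another allele cannot be told apart.

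**Figure D3:**
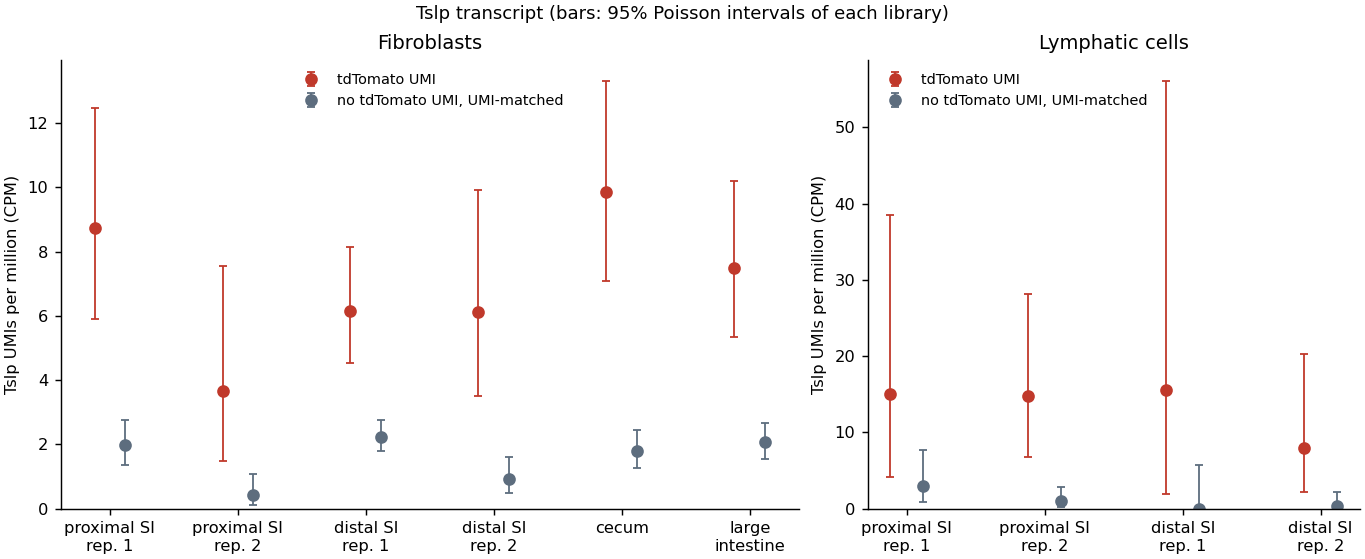
Tslp UMIs per 1000000 gene UMIs (CPM) in members (red) and in UMI-matched cells with no tdTomato UMI (gray) of each library, with 95% Poisson intervals, for fibroblasts (left) and small intestinal lymphatic cells (right). Fibroblast members lie between 3.67 and 9.84 CPM, all above their comparison cells at 0.419 to 2.23 CPM.

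Lymphatic members showed the same direction on few UMIs. The 4 small intestinal libraries with at least 10 lymphatic members gave 15.0, 14.8, 15.5 and 7.92 CPM of Tslp in members against 3.01, 0.987, 0 and 0.396 CPM in matched lymphatic cells. The means were 13.3 ± 3.61 and 1.10 ± 1.34 CPM (SD, n = 4), from 19 and 8 UMIs, and the mean difference was 12.2 ± 3.44 CPM, higher in 4 of 4 libraries (two-sided exact sign-flip test of the CPM difference, p = 0.125, the smallest that 4 libraries allow). Both UMIs of distal small intestine replicate 1 came from 1 of its 14 members, the cell with 16 tdTomato UMIs and 2 hashtags. Without members of 10 or more tdTomato UMIs, an alternative added after seeing the data, that library held 0 Tslp UMIs in both groups, and the mean difference was 7.10 CPM, higher in 3 of 4 libraries (exact p = 0.25). Without cells of several hashtags it was 7.83 CPM (exact p = 0.25). The comparison cells of distal small intestine replicate 1 held 0 Tslp UMIs of 647362, which allows up to 4.63 CPM at 3 UMIs (upper 95% Poisson limit 5.70 CPM). Tslp was found in 12 of 175 members (6.86%) and in 7 of 875 comparison cells (0.8%). Tslp was too low in lymphatic cells to enter the fit across all genes. Without that filter on low counts, edgeR gave a log2 fold change of 3.41 ± 0.85 SE (adjusted p = 0.00900), from the same 19 and 8 UMIs. That unfiltered fit called 69 genes higher and 161 lower, against 17 and 20 with the filter.

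Tslp also stood higher in fibroblasts and lymphatic cells where more copies of tdTomato were found. Fibroblasts with 0, 1 and 2 or more tdTomato UMIs held 1.60, 6.27 and 15.4 CPM of Tslp, with Tslp in 1.38%, 5.82% and 13.3% of cells. Their median depths were close, at 8482, 9052 and 9536 UMIs. Lymphatic cells gave 1.20, 5.54 and 55.3 CPM, the last from 12 UMIs in 20 cells. Of these UMIs, the cells with 11, 13 and 16 tdTomato UMIs gave 1, 2 and 2. The median depths of the lymphatic cells rose, at 6146.5, 7249 and 10349.5 UMIs. Cells with both markers gave 1.15, 6.19 and 24.2 CPM. Cells with neither marker gave 0.933, 3.73 and 0 CPM, the last from 10 cells (upper 95% Poisson limit 40.2 CPM). All of these levels were pooled over libraries and clusters. Members also stood higher than the other cells of their cluster in several fibroblast and lymphatic clusters, at 12.9 against 4.78 CPM in Ptn Tmem229a cells, 6.86 against 2.69 in trophocyte-like, 6.69 against 1.82 in universal fibroblast-like, 11 against 1.12 in telocyte-like, 5.02 against 0.781 in SEMF-like and 15.6 against 1.28 CPM in LEC-like A cells. No Tslp UMI was found in the 26 pericyte-like, 26 epithelial and cycling, 12 myeloid and B cell-like, 10 myofibroblast-like and 7 T cell or ILC-like members, whose clusters held Tslp at 0.435 to 2.11 CPM in the other cells. So few cells allow up to 8.91 to 42.3 CPM (upper 95% Poisson limits). Blood endothelial-like members, all with a Pdgfra UMI, gave 2 Tslp UMIs in 14 cells (7.93 against 0.0567 CPM). Plasma cell-like members, also all with Pdgfra, and glia-like members gave 1 each in 4 cells and 1 cell.

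Across all genes, fibroblast members differed from matched fibroblasts in both directions, and fewer genes passed when the cells were also matched for cluster. Of 13974 genes tested, 340 rose and 314 fell in members (4.68%, or 2.43% higher and 2.25% lower, edgeR's quasi-likelihood test, adjusted p under 0.05). When members were compared with cells of their own cluster, 73 of 13933 genes rose and 36 fell (0.782%, or 0.524% higher and 0.258% lower). The median log2 fold change of all genes was 0.00 in both comparisons. The member and comparison groups were different barcodes of the same library, and comparison cells also passed the tdTomato sort. Gene lists, used below with the number of their tested genes, are read against these shares.

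Of the TSLP and alarmin genes, 3 of 10 tested rose: Tslp itself, Il1rl1, which encodes the IL-33 receptor ST2, and Jak1, a kinase used by the TSLP and IL-7 receptors. Il1rl1 (chromosome 1, 40468730 to 40504575, mm39) stood at 25.3, 2.10, 6.15, 0.763, 66.1 and 113 CPM in members and at 3.43, 1.15, 2.67, 3.14, 28.9 and 54.6 CPM in matched fibroblasts. It was high in the cecum and large intestine in both groups, and the groups overlapped across libraries. The log2 fold change was 1.31 ± 0.25 (adjusted p = 0.0192), higher in 5 of 6 libraries, and within clusters it was 1.06 ± 0.14 (adjusted p = 0.00219), higher in 6 of 6. Il1rl1 is also a leading gene of the telocyte-like cluster. Its call was lost with DESeq2 (adjusted p = 0.274) and without proximal small intestine replicate 2 (0.0510), distal small intestine replicate 1 (0.0513) or the large intestine (0.0578). Jak1 stood at 475 ± 101 against 350 ± 80.2 CPM (0.48 ± 0.12, adjusted p = 0.0436) and within clusters did not pass the test (0.27, adjusted p = 0.141). The receptors for cytokines and other inducers of Tslp, such as the receptors for IL-1, TNF and IL-4, gave 0 of 14 past the test in edgeR, DESeq2 and limma-voom, 5 with an unadjusted p under 0.05, and a median log2 fold change of 0.09.

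Several genes of the crypt niche rose in members, and none of the trophocyte list passed the test within clusters. Of 8 trophocyte genes 3 rose, Grem1, Cd81 and Rspo3, while within clusters 0 passed edgeR's test and 2 had an unadjusted p under 0.05. Grem1, the BMP antagonist (chromosome 2, 113576509 to 113589000), stood at 1132, 1266, 1093, 1123, 99.1 and 249 CPM in members and at 688, 620, 654, 490, 59.1 and 148 CPM in matched fibroblasts, higher in 6 of 6 libraries. Its log2 fold change was 0.91 ± 0.07 (adjusted p = 0.00135), and 0.36 ± 0.08 within clusters (adjusted p = 0.0537). Cd81, a tetraspanin used to sort trophocytes, stood at 278 ± 116 against 180 ± 105 CPM (0.74 ± 0.09, adjusted p = 0.00176) and at 0.05 within clusters. Rspo3, a WNT-enhancing R-spondin, rose by 0.31 (adjusted p = 0.0275) and Fst, the activin antagonist follistatin, by 0.99 (adjusted p = 0.0198). Frzb, a secreted WNT inhibitor, changed by -0.71 (adjusted p = 0.0313). In all, 3 of 15 WNT and BMP modulators rose and 1 fell.

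Among the WNT and BMP ligands 4 fell and 1 rose. Of 7 WNT ligands 1 fell, Wnt4, at 33.8, 33.5, 10.6, 22.5, 128 and 139 CPM in members against 47.1, 62.8, 26.7, 59.8, 237 and 207 CPM, lower in 6 of 6 libraries. Its log2 fold change was -0.83 ± 0.11 (adjusted p = 0.00291), and -0.24 within clusters (adjusted p = 0.249). Of 8 BMP ligands 3 fell, Bmp3 (-0.89), Bmp5 (-0.53 ± 0.07, adjusted p = 0.00291) and Bmp6 (-0.57 ± 0.10, adjusted p = 0.0130), and Gdf10 rose (0.81, adjusted p = 0.0313). Within clusters none of the 7 tested BMP or 7 WNT ligands passed edgeR's test, and 3 and 2 had an unadjusted p under 0.05. Of 9 telocyte and subepithelial fibroblast genes 5 fell, Frmd5 (-1.20), Ntf3 (-0.68), Agt (-0.54), Bmp5 and Cxcl14 (-0.41), and F3, the coagulation tissue factor, rose (0.51). Summed over this list, members stood at 280 to 2403 CPM and matched fibroblasts at 381 to 2577 CPM. Fibroblasts matched within clusters stood at 271 to 2159 CPM. Members were thus higher in 0 of 6 libraries without cluster matching and in 6 of 6 within clusters. The lamina propria fibroblast genes Adamdec1 (2570 ± 951 against 4326 ± 1094 CPM, -0.76 ± 0.08, adjusted p = 0.00138) and Vwc2 (-0.65) fell. Adamdec1 changed by -0.18 within clusters (adjusted p = 0.0259).

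Several niche genes that the study names did not pass the test. Glp2r, the receptor for the gut hormone GLP-2, stood at 72.3 ± 39.4 CPM in members and 70.7 ± 42.8 CPM in matched fibroblasts (0.10 ± 0.08, adjusted p = 0.539), and Glp1r gave 0 UMIs in members. Foxl1, a telocyte transcription factor, stood at 8.01 ± 12.1 against 8.57 ± 12.6 CPM, and Procr, which encodes the telocyte marker CD201, at 41.6 ± 64.9 against 57.2 ± 86.2 CPM (-0.47, adjusted p = 0.0644). Lgr5 stood at 8.69 ± 6.79 against 4.99 ± 4.29 CPM (1.01 ± 0.32, adjusted p = 0.103). Wnt5a, Bmp7, Bmp4, Dkk2, Cd34, Pi16, Wnt2b and Nes lay between -0.23 and 0.18 on the log2 scale.

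The genes with the largest rises included leading genes of the clusters rich in members. Of the 10 largest rises that held in 6 of 6 libraries, Tmem229a (1.32), Gm4956 (1.23) and Adra1a (0.98) led Ptn Tmem229a cells and Adgrb3 led trophocyte-like cells. Adgrb3, an adhesion receptor (chromosome 1, 25106526 to 25869270), stood at 64.3, 74.4, 86.6, 69.8, 1.88 and 4.3 CPM in members against 35.7, 18.8, 37.0, 22.1, 0.750 and 2.06 CPM. Its log2 fold change was 1.41 ± 0.14 (adjusted p = 0.00135) and remained 0.70 ± 0.10 within clusters (adjusted p = 0.00367). The other rises were Cox8b (1.71), Rgs7 (1.51), Il6 (1.10), Gm36543 (1.09), Chodl (1.06) and Ntrk3, the neurotrophin-3 receptor (0.98). Within clusters Ntrk3 (0.43 ± 0.05, adjusted p = 0.000654) and Kcne4, a potassium channel subunit (0.70 ± 0.10, adjusted p = 0.00367), rose, while Cox8b, Rgs7, Chodl, Tmem229a, Gm4956, Gm36543 and Adra1a lay between 0.08 and 0.44 and did not pass. The largest falls outside muscle genes were the immunoglobulin gene Igkc (-1.65 ± 0.41, adjusted p = 0.0493), the potassium channel Kcnq5 (-1.57 ± 0.27, adjusted p = 0.0120), Cyyr1 (-1.36), Clu (-1.12), Tc2n (-1.08), Gipc2 (-1.07) and the angiotensin receptor Agtr1b (-1.06). Kcnq5 (-1.34 ± 0.14, adjusted p = 0.000654) also fell within clusters, as did Sox6 (-0.74 ± 0.10, adjusted p = 0.00208) and Efnb2 (-0.60, adjusted p = 0.0138). Igkc lay at -0.14 there.

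Several inflammatory genes rose in members, also within clusters. Of 16 NF-kB targets and inflammatory cytokines, 5 rose, Il6, Cxcl1, Icam1, Nfkbia and Nfkbiz, with a median log2 fold change of 0.42 over the list. Within clusters 5 rose, Il6, Cxcl1, Icam1, Nfkbia and Ccl2, with a median of 0.27. The summed level of the list was 1917 to 2462 CPM in members, 1367 to 2274 CPM in matched fibroblasts and 1515 to 2175 CPM in those matched within clusters, and members were higher in 6 of 6 libraries against both.

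Il6, an inflammatory cytokine, stood at 41.6, 57.6, 53.3, 82.4, 75.9 and 8.98 CPM in members against 21.8, 19.7, 31.1, 12.4, 62.1 and 6.69 CPM, with the large intestine lowest in both groups. Its log2 fold change was 1.10 ± 0.27 (adjusted p = 0.0438), and 0.53 ± 0.12 within clusters (adjusted p = 0.0465). The first of these calls was lost without proximal small intestine replicate 1 (0.106) or 2 (0.127), distal small intestine replicate 1 (0.0922) or the large intestine (0.0581). Cxcl1, a neutrophil chemokine, stood at 92.8, 88.0, 198, 225, 365 and 89.4 CPM against 46.1, 48.2, 137, 94.3, 342 and 73.1 CPM, and rose in both comparisons (0.69 ± 0.14, adjusted p = 0.0259, and 0.44 ± 0.07, adjusted p = 0.00728). Ccl2, a monocyte chemokine, stood at 91.9 ± 54.9 against 60.1 ± 34.4 CPM (0.68 ± 0.19, adjusted p = 0.0707) and passed the test within clusters (0.68 ± 0.11, adjusted p = 0.00815). Nfkbiz, a nuclear IκB protein, stood at 353 ± 105 against 207 ± 61.2 CPM (0.80 ± 0.09, adjusted p = 0.00168) and did not pass within clusters (0.22, adjusted p = 0.0735).

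Immediate early genes, which are switched on within minutes of a stimulus and also by enzymatic digestion of tissue, rose with them. Of 16 immediate early and heat shock genes 6 rose (Fos, Junb, Egr1, Ier2, Ier3 and Nr4a1, median of the list 0.50) and within clusters 7 rose (these 6 and Jun, median 0.21). The summed level was 11755 to 27423 CPM in members, 7560 to 29026 CPM in matched fibroblasts and 10175 to 26365 CPM within clusters, higher in members in 5 and 6 of 6 libraries. Of these, Ier3 changed most within clusters (0.70 ± 0.14, adjusted p = 0.0209, and 0.44 ± 0.04 within clusters, adjusted p = 0.000604). Egr2, an early growth response transcription factor outside the list, rose by 0.82 ± 0.11 (adjusted p = 0.00303) and by 0.57 ± 0.08 within clusters (adjusted p = 0.00405). Nr1d1, which encodes the clock repressor REV-ERBα, rose too (0.61 ± 0.10, adjusted p = 0.00782, and 0.26 ± 0.05, adjusted p = 0.0259). Their part in the rise of NF-kB targets was not tested. The heat shock genes of the list did not pass.

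Contractile genes fell. Of 8 myofibroblast and smooth muscle genes 7 fell, with a median log2 fold change of -0.91, and within clusters Tagln and Acta2 fell (median of the list -0.37). Tagln, the actin-binding protein transgelin (chromosome 9, 45840909 to 45847404), stood at 46.9, 23.6, 55.7, 64.1, 116 and 341 CPM in members against 94.6, 101, 96.5, 263, 170 and 557 CPM, lower in 6 of 6 libraries. Its log2 fold change was -1.04 ± 0.18 (adjusted p = 0.0116), and -0.75 ± 0.11 within clusters (adjusted p = 0.00367). Acta2, smooth muscle actin, changed by -0.79 ± 0.13 (adjusted p = 0.0116) and by -0.51 ± 0.07 within clusters (adjusted p = 0.00476). Pdlim3, a muscle LIM protein gene, changed by -1.10 ± 0.13 (adjusted p = 0.00216) and by -0.61 within clusters (adjusted p = 0.00367). Cnn1 (-2.27 ± 0.21, adjusted p = 0.00135), Myh11 (-1.26), Des (-0.46) and Synpo2 (-0.39) fell as well, and Actg2 (-1.04, adjusted p = 0.05 after rounding) was just under the threshold. Without Scrublet doublets Cnn1 (adjusted p = 0.0923), Myh11 (0.223), Actg2 (0.611) and Des (0.113) did not pass edgeR's test.

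**Figure D4:**
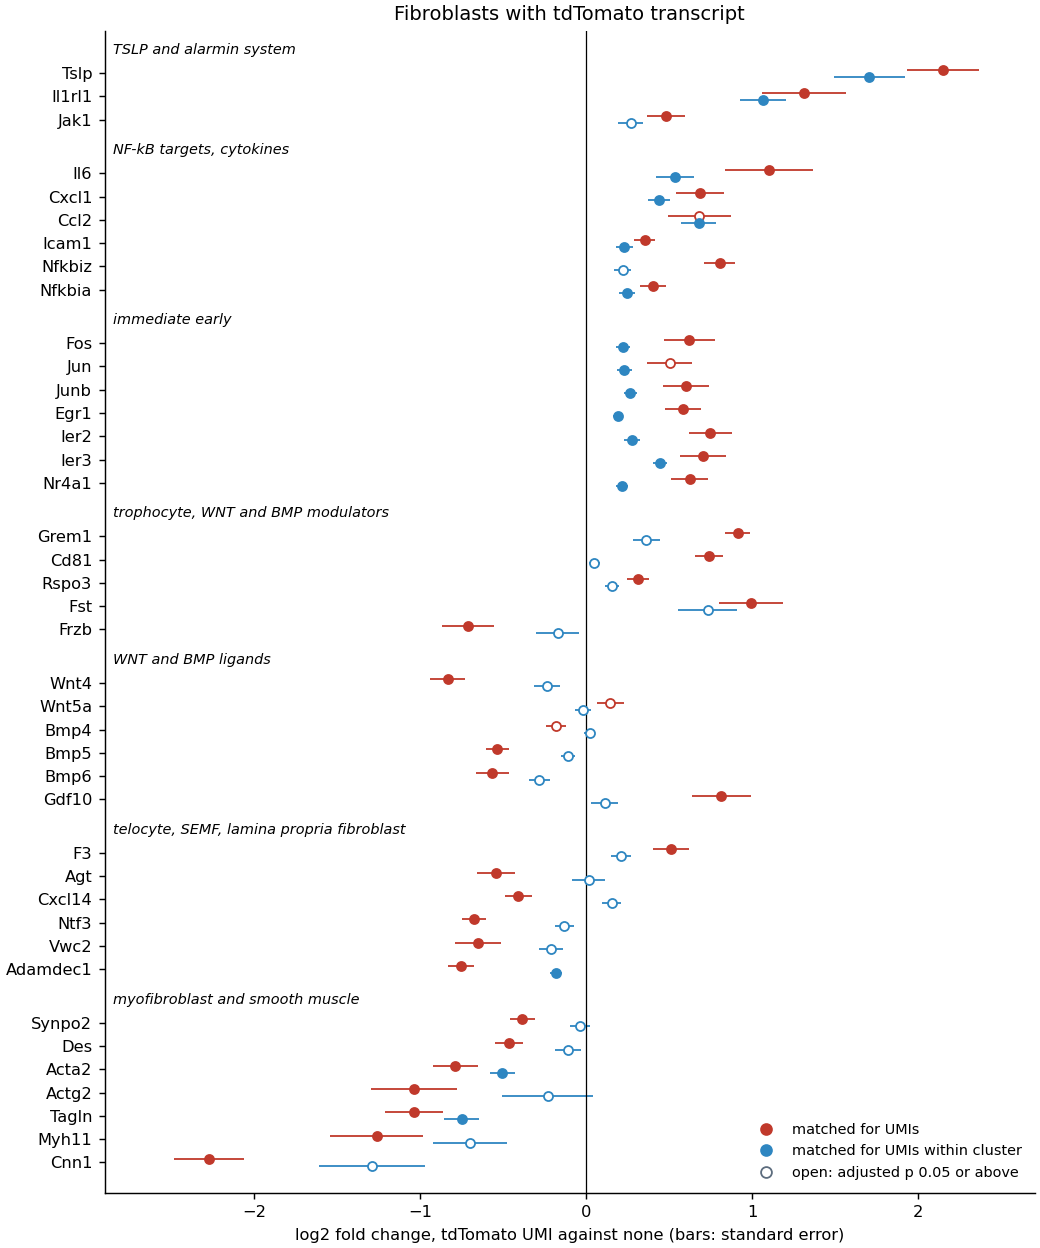
Log2 fold change (points) with its standard error (bars) between fibroblast members and fibroblasts with no tdTomato UMI, matched for total UMIs (red) or for UMIs within the same cluster (blue), for genes of the lists in the text. Open points did not pass an adjusted p of 0.05. Tslp and Il1rl1 lie farthest to the right in both comparisons, and the niche genes Grem1, Cd81, Wnt4 and Bmp5 lie nearer to 0 within clusters.

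Several fibroblast marker genes rose when clusters were not matched. Of the 8 fibroblast markers, Lum (0.42 ± 0.05, adjusted p = 0.00314), Dcn (0.32), Dpt (0.31) and Col1a1 (0.30) rose. Pdgfra chose the fibroblasts of both groups, and its log2 fold change of 0.23 is a description. The median of the list, Pdgfra included, was 0.30, and 0.04 within clusters, where Col1a1 and Col1a2 rose. Its summed level was 26178 to 36075 CPM in members, 22551 to 33922 CPM in matched fibroblasts and 26049 to 35457 CPM within clusters. Of 10 cAMP and CREB targets Pde4d, a cAMP phosphodiesterase, fell (-0.30 ± 0.05, adjusted p = 0.00838) and within clusters stood at -0.03 (adjusted p = 0.882). The 6 universal fibroblast genes gave 0 calls in edgeR, 1 with an unadjusted p under 0.05, 0 in DESeq2 and 1 in limma-voom, and within clusters Cd55 (-0.33 ± 0.06, adjusted p = 0.0229) and Anxa3 (-0.42 ± 0.07, adjusted p = 0.0130) fell. Sfrp4, a secreted WNT inhibitor (-0.78, adjusted p = 0.0259), also fell within clusters.

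Calls were few among matrix, growth factor, interferon and hormone receptor genes. Fn1, the matrix protein fibronectin, fell (679 ± 225 against 982 ± 293 CPM, -0.49 ± 0.06, adjusted p = 0.00291, and -0.21 within clusters, adjusted p = 0.0255), and Col1a1 rose (0.30, adjusted p = 0.0482, and 0.10 within clusters, adjusted p = 0.0259), the only calls among 15 matrix genes apart from Col1a2 within clusters. Of 13 growth factor genes Fgf7, the keratinocyte growth factor, rose (0.31, adjusted p = 0.0258) and Fgf10 (-0.58), Btc (-0.64) and Ereg (-0.53) fell. Within clusters the only call of that list was Nrg1, an ErbB ligand (0.48 ± 0.08, adjusted p = 0.00932, against 0.11, adjusted p = 0.873, without cluster matching). The 10 interferon response genes gave 0 calls in edgeR, 4 with an unadjusted p under 0.05 and 1 call each in DESeq2 and limma-voom, and within clusters Gbp2 and Ifitm3 rose. The hormone and neuropeptide receptors gave 0 of 7 in edgeR, 5 with an unadjusted p under 0.05, 1 call in DESeq2 and 2 in limma-voom, and Npy1r fell within clusters.

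Of the pericyte, endothelial, glial, epithelial and immune markers, Abcc9 rose and the others tested did not pass when clusters were not matched, while the contractile genes and Igkc, which is outside these lists, fell as given above. Abcc9, a potassium channel regulator listed with the pericyte markers, stood at 72.8 ± 49.3 against 34.2 ± 14.7 CPM (0.97 ± 0.21, adjusted p = 0.0291) and did not pass within clusters (0.21, adjusted p = 0.490). Of 33 tested blood endothelial, lymphatic, glial, epithelial, T cell, plasma cell, myeloid and pan-immune markers 0 passed edgeR's test, 8 had an unadjusted p under 0.05, and DESeq2 called 1 and limma-voom 0. Within clusters Lyz1, a lysozyme gene of Paneth cells, fell (-1.98 ± 0.40, adjusted p = 0.0361), at 1.98 ± 3.09 CPM in members, with 53.8 CPM in the comparison cells of proximal small intestine replicate 1 and at most 2.62 CPM in those of the other libraries. The summed level of 4 pan-immune markers was 2.06 to 49.2 CPM in members and 4.97 to 33.1 CPM in matched fibroblasts, and that of 6 B and plasma cell markers was 148 to 836 and 148 to 1103 CPM. Matched fibroblast members and comparison cells had hashtag UMI medians of 406 ± 84.1 and 453 ± 93.8 (lower in 6 of 6 libraries, exact p = 0.03125, adjusted p = 0.109) and mitochondrial shares of 2.43% ± 0.252 and 2.39% ± 0.267. Scrublet called 11.4% ± 2.67 of members and 8.87% ± 2.36 of comparison cells doublets (higher in 5 of 6 libraries, exact p = 0.0625, adjusted p = 0.109). With these cells removed, Tslp was 5.31-fold higher in members (edgeR, adjusted p = 0.00101).

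In lymphatic cells of the small intestine Ccl2 and Tnc rose in members in both comparisons. Of 7598 genes tested, 17 rose and 20 fell (0.487%, or 0.224% higher and 0.263% lower), and within clusters 16 of 7392 rose and 1 fell (0.23%, or 0.216% higher and 0.0135% lower). Both counts came from 175 members in 4 libraries, of which distal small intestine replicate 1 gave only 14. Ccl2 (chromosome 11, 81926397 to 81928279) stood at 293, 365, 1070 and 297 CPM in members and at 51.9, 51.3, 55.6 and 107 CPM in matched lymphatic cells. No member library overlapped with a comparison library, and the highest value came from the 14 cells of distal small intestine replicate 1. The log2 fold change was 2.64 ± 0.28 (adjusted p = 0.000296) and 2.27 ± 0.21 within clusters (adjusted p = 1.23e-05).

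Tnc, the matrix glycoprotein tenascin-C (chromosome 4, 63878014 to 63965443), stood at 255, 490, 574 and 309 CPM in members against 130, 140, 127 and 181 CPM. These groups did not overlap either (1.42 ± 0.19, adjusted p = 0.00221, and 1.33 ± 0.17 within clusters, adjusted p = 0.000978). Serpinb6b, a serine protease inhibitor, stood at 184, 143, 85.3 and 101 CPM against 58.6, 43.4, 40.2 and 72.1 CPM (1.27 ± 0.21, adjusted p = 0.0109, and 0.98 ± 0.19, adjusted p = 0.0282). The cytokine lymphotoxin β gene Ltb (1.80, adjusted p = 0.0493, and 1.69, adjusted p = 0.0281), the polyamine synthesis gene Odc1 (1.21 and 1.27), Ppp1r14b (0.91 and 0.93) and the GTPase gene Rhoc (0.86 and 0.72) rose in both comparisons. Anxa1, annexin A1 (1.19, adjusted p = 0.0182), Pgf, a growth factor of the VEGF family (1.12, adjusted p = 0.0117), and Top2a, a proliferation gene (2.72, adjusted p = 0.0493), rose without cluster matching. Within clusters they stood at 0.81, 0.90 and 0.28 and did not pass. With cells holding both Prox1 and Pdgfra kept as lymphatic cells, Ccl2 stood at 1.55 (adjusted p = 0.0566) and Tnc at 0.35 (adjusted p = 0.328).

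**Figure D5:**
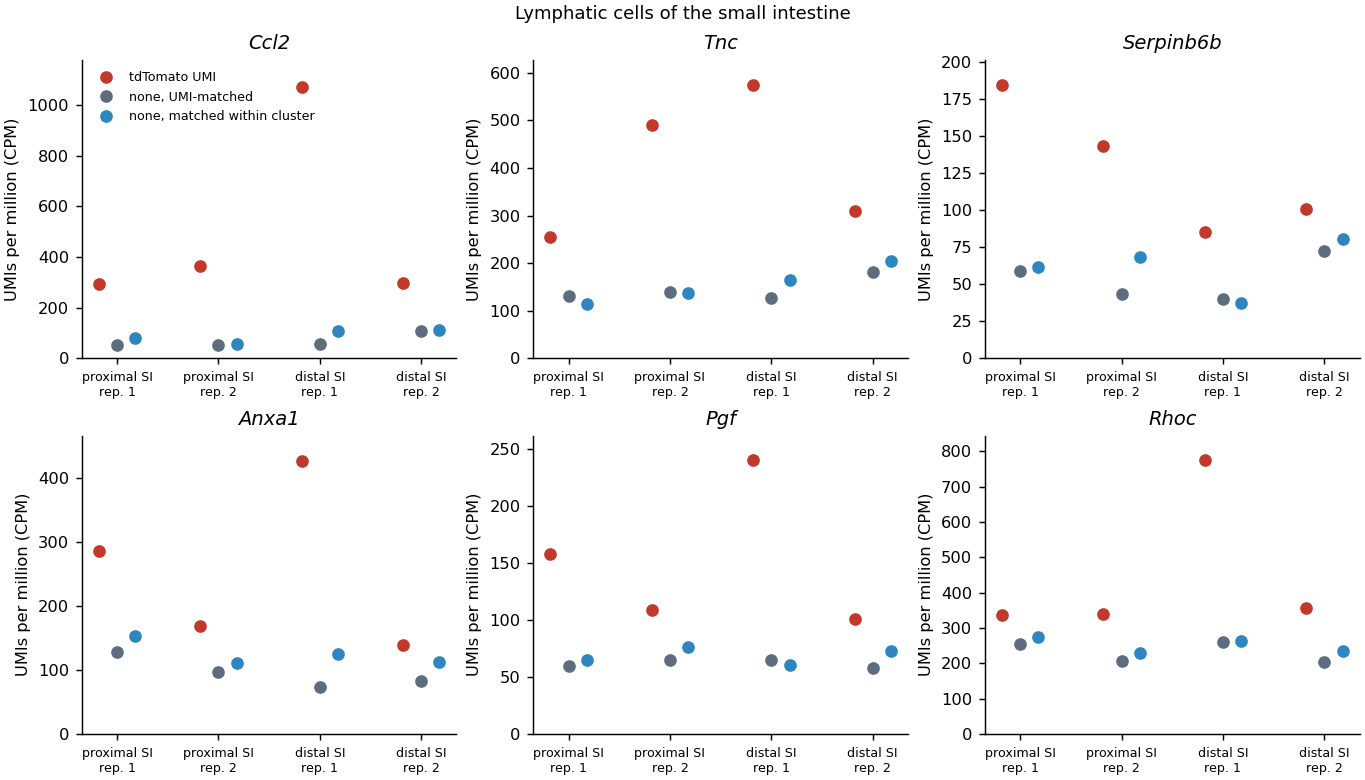
Levels in UMIs per 1000000 gene UMIs (CPM) of 6 genes in lymphatic members (red), UMI-matched lymphatic cells with no tdTomato UMI (gray) and those matched within cluster (blue) of each small intestinal library. Ccl2 and Tnc in members lie above both comparison groups in all 4 libraries, with Ccl2 highest, at 1070 CPM, in distal small intestine replicate 1.

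The falls in lymphatic members included markers of plasma, blood endothelial and smooth muscle cells, which within clusters did not pass the test or were too low to be tested. The marker rule admits cells of other clusters as lymphatic. A Prox1 UMI was found in 11.9% of plasma cell-like and 14.6% of blood endothelial-like cells, and no lymphatic member fell in these clusters. With lineage by cluster name 35 genes rose and 3 fell. The plasma cell gene Jchain stood at 78.9, 69.1, 38.8 and 61.4 CPM in members against 1172, 2216, 136 and 1124 CPM (-4.35 ± 0.23, adjusted p = 5.55e-08), and Igha (-3.93) and Igkc (-3.81) fell alike. The blood endothelial genes Flt1 (-3.73 ± 0.31, adjusted p = 1.31e-05), Plvap (-2.45) and Esam (-3.27) and the smooth muscle genes Tagln (-2.03), Acta2 (-2.03) and Myh11 (-3.04) also fell. The summed level of 6 B and plasma cell markers was 85.3 to 173 CPM in members, 247 to 2403 CPM in matched cells and 128 to 172 CPM in cells matched within clusters. Within clusters Jchain (-0.21), Igha (-0.10) and Igkc (0.15) did not pass, and the endothelial and smooth muscle genes named here were too low to be tested. Fos was the only gene that fell within clusters (-0.56 ± 0.11, adjusted p = 0.0282), at 865 ± 251 CPM in members against 1290 ± 227 CPM. The 16 immediate early and heat shock genes, Fos among them, summed to a median of 11421 CPM in lymphatic members. The medians were 12776 CPM in matched cells and 13337 CPM in cells matched within clusters, with members higher in 1 and 0 of 4 libraries. Cxcl10, an interferon-inducible chemokine, fell without cluster matching (-1.25, adjusted p = 0.0345). The 8 lymphatic markers gave 0 calls in edgeR, DESeq2 and limma-voom and 0 with an unadjusted p under 0.05. Their summed level was 11659 to 16315 CPM in members, 15350 to 16734 CPM in matched cells and 16565 to 17286 CPM in cells matched within clusters. Members were higher in 2 of 4 libraries against the former and in 0 of 4 against the latter. Prox1, which is one of these markers, chose the cells of both groups and stood at 905 ± 211 against 1074 ± 75.6 CPM.

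The difference between members and comparison cells was not the same in the lineages for a part of these genes. The test of that difference in the small intestine called 196 of 12553 genes (1.56%), 30 higher (0.239%) and 166 lower (1.32%) in lymphatic than in fibroblast members. Within clusters it called 9 of 12524 (0.0719%), 5 higher (0.0399%) and 4 lower (0.0319%). Tnc differed most clearly (interaction on the log2 scale 1.81 ± 0.20, adjusted p = 0.000487, and 1.34 ± 0.17 within clusters, adjusted p = 0.000674). Its log2 ratios of members to comparison cells, computed with 1 CPM added, were -0.43, -0.81, -0.63 and -0.49 in fibroblasts and 0.97, 1.80, 2.17 and 0.77 in lymphatic cells. Every small intestinal library thus lay below 0 in fibroblasts and above 0 in lymphatic cells. Ccl2 differed in the same direction (1.74 ± 0.41, adjusted p = 0.0433, and 1.52 ± 0.24 within clusters, adjusted p = 0.00762). Tslp did not differ detectably between the lineages (1.34 ± 0.74, adjusted p = 0.469). Grem1 differed (-2.08 ± 0.36, adjusted p = 0.00849), but not within clusters (-0.81, adjusted p = 0.498).

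Among fibroblasts, 189 of 15398 genes differed between members and comparison cells to another extent in the large bowel (cecum and large intestine) than in the small intestine (1.23%), 81 relatively higher (0.526%) and 108 lower (0.701%) in large bowel members. Within clusters 17 of 15329 did (0.111%), 6 higher (0.0391%) and 11 lower (0.0718%). The cecum and large intestine gave 1 library each. Ogn, which encodes the small matrix proteoglycan osteoglycin, had log2 ratios of 0.78, 0.99, 0.86 and 1.01 in the small intestinal libraries, with -0.50 for the cecum and -0.55 for the large intestine (interaction -1.49 ± 0.09, adjusted p = 2.11e-05, and -0.55 ± 0.06 within clusters, adjusted p = 0.00174). Tnc was lower in small intestinal members and higher in large bowel members, at 0.42 and 0.41 (0.94 ± 0.10, adjusted p = 0.00178, and 0.39 ± 0.06 within clusters, adjusted p = 0.0149). The lipid genes Pparg (1.41 ± 0.11, adjusted p = 0.000285) and Plin2 (0.91 ± 0.09, adjusted p = 0.00178) were relatively higher and Apoe (-1.22 ± 0.17, adjusted p = 0.00816) relatively lower in large bowel members, and within clusters these differed as well (0.55, 0.54 and -0.55). These 5 genes were named after their values had been seen. No such difference was detectable for Tslp (0.03 ± 0.48, adjusted p = 1) or Grem1 (-0.22 ± 0.13, adjusted p = 0.584).

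Members of different regions differed from one another as well. Between member fibroblasts of the distal and proximal small intestine, 31 of 13954 genes differed (0.222%), 10 higher (0.0717%) and 21 lower (0.15%) distally, with 2 libraries on each side. Hoxc8, a positional transcription factor, stood at 16.6 and 9.43 CPM in the proximal and at 89.0 and 88.5 CPM in the distal libraries (log2 fold change 2.74 ± 0.25, adjusted p = 0.00302). The chemokine gene Cxcl5 (1.81 ± 0.26, adjusted p = 0.0280), Pitx1 (1.82, adjusted p = 0.0492) and Edil3 (1.79) were higher distally. The granin gene Scg2 stood at 39.6 and 21.5 CPM proximally and gave 0 UMIs distally, and Abcc9, a potassium channel regulator, stood at 91.4 and 82.8 against 10.9 and 17.9 CPM (-2.64 ± 0.23, adjusted p = 0.00302). Chodl (-2.57) and Epha3 (-2.37) were also higher proximally. Scg2 UMIs were absent from the member fibroblasts of cecum and large intestine as well. Ptn Tmem229a cells, in which Scg2 stood at 514 and 518 CPM proximally and at 13.5 and 13.8 CPM distally, supplied 7.37% and 4.86% of the proximal and 1.23% and 2.02% of the distal members, and their part in these differences was not tested. Tslp in member fibroblasts did not differ detectably between the regions (-0.05 ± 0.43, adjusted p = 0.998), nor did Grem1 (-0.07 ± 0.20, adjusted p = 0.997).

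Large bowel and small intestinal member fibroblasts differed in 3380 genes (24.2%), with 1775 higher (12.7%) and 1605 lower (11.5%) in the large bowel. Cecum and large intestine gave 1 library each, so the spread in this test came from the replicates of the small intestinal regions alone. It holds no spread between large bowel libraries of the same region. The mineralized matrix protein gene Dmp1 gave 0 UMIs in the 4 small intestinal libraries and 27.7 and 70.9 CPM in the cecum and large intestine, and Hoxa9 gave 0 UMIs against 37.7 and 24.5 CPM. Of 9 telocyte and subepithelial fibroblast genes 7 were higher and 1, Frmd5, lower in large bowel members (edgeR, adjusted p under 0.05), with a median log2 fold change of 1.53 against -0.03 over all genes. Of 4 villus tip telocyte genes 3 were higher. Among these were Procr (log2 fold change 4.08 ± 0.19), Bmp7 (4.02 ± 0.25), Foxl1 (3.41 ± 0.33) and Wnt5a (1.66 ± 0.14). Glp2r stood at 46.0, 44.0, 56.2 and 43.9 CPM in small intestinal members and at 110 and 134 CPM in the large bowel (1.33 ± 0.17). Of 8 trophocyte genes 5 were lower and 1, Cd81, higher in large bowel members (median -1.33), with Grem1 at -2.88 ± 0.21, Rspo3 at -2.12 ± 0.17 and Dkk2 at -7.13 ± 0.29. Lgr5 did not pass the test, at 1.53 to 18.6 CPM in small intestinal and 0.937 and 12.7 CPM in large bowel members (adjusted p = 0.134). Trophocyte-like cells supplied 29.1% to 60.4% of the small intestinal members and 0% and 1.20% of those of cecum and large intestine. For telocyte-like cells these shares were 0.288% to 1.72%, 6.70% and 30.3%. The part of this difference in cell makeup was not tested. Tslp did not differ detectably (0.42 ± 0.34, adjusted p = 0.395).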

How the data were processed

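Sorted TSLP-tdTomato+ lamina propria cells were captured with a 10x 3′ kit in 6 libraries of 4 regions. The authors used the mm39 genome, extended by the reporter sequence, and the deposited files hold raw UMI counts per gene and barcode, before any removal of doublets or free RNA. The submitters' notes name Cell Ranger 8.1.0, and the matrix headers name 8.0.1. Free RNA, doublets and hashtags therefore still bear on every value.

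Cells were filtered at the limits of the study's methods. A fibroblast had a Pdgfra UMI and no Prox1 UMI, a lymphatic cell the reverse. For each member 5 cells of the same library and lineage with no tdTomato UMI, nearest in total UMIs, were drawn without replacement, in an alternative within the same cluster. UMIs were summed per library and group (at least 10 cells) and tested in edgeR (TMM, filterByExpr, quasi-likelihood, library as a block, Benjamini-Hochberg at 0.05). A standard error is the log2 fold change divided by the root of F. CPM are UMIs per 1000000 gene UMIs of the sum. Region comparisons used member sums of all 6 libraries with the 4 regions as groups, of which only the small intestinal ones had 2 libraries. Single values were compared by exact sign-flip permutation over libraries. The Tslp test had been laid out on log2 ratios, and in lymphatic cells it was made on CPM differences since 1 ratio is undefined. The fits were tested on simulated data: of 200 genes shifted 2-fold, 92.5% were recovered in the fibroblast comparison (13974 genes) and 75.5% in the lymphatic comparison (7598 genes). Recovery was 53% in the lineage interaction and 58.5% in the bowel interaction. It was 43.5% between distal and proximal members and 62.5% between large bowel and small intestine, so many 2-fold changes could go undetected there. The simulated means were alike in every library apart from the shift and the library total. Clusters came from scanpy (30 principal components, resolution 0.5, tdTomato and Tslp left out) and doublet calls from Scrublet at 0.8% per 1000 cells. Clusters were named from marker lists, and those without a fitting list by leading genes. Gene positions are from GENCODE on GRCm39, the same assembly as mm39.

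The members and gene lists were chosen with earlier results of these data known. Named genes are Tslp, list genes past the test, genes that the study names, and, in each direction, the 10 largest changes held in every library (5 in the interaction and region comparisons), at a mean of at least 10 CPM. Alternatives were DESeq2, limma-voom, other size factors, no filter on low counts, no block, other matching, other member and lineage rules, removal of doublets or of cells with several hashtags, stricter cell filters and leaving out each library. Cluster matching in the interactions, and leaving out libraries with cluster matching, were added after seeing the data, as were tdTomato and Tslp levels without cells of 10 or more tdTomato UMIs. No sequence is printed. Not all genes that meet the rule are named, and 1 is not reported here. Versions were R 4.3.3, DESeq2 1.42.0, limma 3.58.1, edgeR 4.0.16, Python 3.11.15, scanpy 1.11.5, scipy 1.17.1, matplotlib 3.10.9, pandas 2.3.3 and numpy 2.4.6.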

Additional observations from a re-analysis of the deposited data

Results flagged for a closer look

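The difference between fibroblast members and comparison cells differed between large bowel and small intestine in the test of the difference itself for the 5 largest interactions in each direction. On the log2 scale these were 1.75 in Tlcd4, 1.70 in Hhip, a hedgehog-binding protein gene, 1.66 in P2ry1, a purine receptor gene, 1.66 in H2-Q10 and 1.61 in Syn2, all relatively higher in large bowel members. Relatively lower were Pde4c at -2.53, Fam180a at -1.86, Gm3336 at -1.81, Cldn10 at -1.67 and Chrdl1, a BMP antagonist gene, at -1.66. With comparison cells drawn within clusters, Hhip passed the test (1.42 ± 0.24, edgeR adjusted p = 0.0213) and the other 9 did not. The interaction rests on 1 library each of cecum and large intestine, and without the cecum 8 of the 10 no longer passed.

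The difference between members and comparison cells also differed between the lineages in the small intestine. Relatively higher in lymphatic members were Cxcl2 at 3.19, Slc7a2 at 2.47, Tnc at 1.81, Ccl2 at 1.74 and Serpinb6b at 1.55. Relatively lower were Slpi at -5.42, Ly6c1 at -5.31, Ctla4 at -4.73 and Lin7a at -3.75, each of which rests on 1 UMI over all lymphatic members. Within clusters Tnc and Ccl2 passed the test and the other 7 of these genes did not.

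Barcodes with at most 100 UMIs, which no comparison uses, held 24 and 4 tdTomato UMIs in proximal small intestine replicates 1 and 2, 50 and 15 in distal small intestine replicates 1 and 2, 31 for the cecum and 22 for the large intestine.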

How the results depend on the processing

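Each library is 1 sample, so leaving out 1 library removed a whole replicate, and most tdTomato-bearing cells rest on 1 captured UMI. The fibroblast comparison called 654 genes, 109 with matching within clusters, 47 with members of 2 or more tdTomato UMIs and 0 in edgeR without the library block, where 363 genes had an unadjusted p under 0.05 against 2735 with it. Without the block Tslp stood at 2.16 (adjusted p = 0.687). Leaving out each library gave 238 to 948 genes: 295 and 238 without proximal replicates 1 and 2, 331 and 389 without distal replicates 1 and 2, 948 without the cecum and 415 without the large intestine. Within clusters these counts were 63, 83, 102, 98 and 120 without proximal replicates 1 and 2, distal replicates 1 and 2 and the cecum. Without the large intestine 56 genes rose and 34 fell within clusters. The lymphatic comparison called 37 genes, 230 without the filter on low counts, 6 without the block, 3 with 1 comparison cell per member, 105 without matching, 17 within clusters, 58 with cells of both markers kept, 20 without cells of several hashtags, and 10 to 64 on leaving out a library (20 without proximal replicate 2, 64 and 10 without distal replicates 1 and 2). With 2 or more tdTomato UMIs it could not be fitted. The lineage interaction called 196 genes, 100 with limma-voom, 454 without the filter, 9 within clusters, and 43 to 157 on leaving out a library (43 without proximal replicate 2, 76 without distal replicate 2). The bowel interaction called 189, 803 without the filter, 17 within clusters, and 61 to 218 on leaving out a library (114 without proximal replicate 2, 90 without distal replicate 1, 61 without the cecum). Between distal and proximal members 31 genes differed, 48 in DESeq2, 17 in limma-voom, 302 without the filter, and 23 to 385 on leaving out a library (250 and 385 without distal replicates 1 and 2). Between large bowel and small intestine 3380 differed, 1872 in DESeq2, and 1974 to 5072 on leaving out a library (2162 and 2308 without proximal replicates 1 and 2, 5072 without distal replicate 1, 1977 without the cecum, 1974 without the large intestine).

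With the replicate number as a replicate block, 300 genes differed between distal and proximal members. Same-numbered libraries deviated with a correlation of 0.0590 over 13738 genes, and the numbers are not shown to pair the libraries.

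In shares of cells (percentage points), no matching gave 8.45 for fibroblasts, -4.27 for lymphatic cells, 1.63 for cells of both markers and -5.81 for cells of neither. In that setting, where depth differs, the fibroblast, lymphatic and neither shares passed (exact sign-flip test, adjusted p = 0.0417 each). With members of 2 or more UMIs the lymphatic difference was 1.15, and on leaving out a library that of both markers ran from -0.730 to 0.301. The difference in cells with several hashtags was -0.685 without Scrublet doublets, -0.951 with members of 2 or more UMIs and -0.434 to 0.990 on leaving out a library.

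Directions turned for these genes, all but Agt, Cxcl14, Fgf10, Lum, Dpt, Igkc, Fos and Cxcl10 not past the test. In fibroblasts matched within clusters the log2 fold change was 0.014 for Agt, 0.15 for Cxcl14, 0.064 for Fgf10, 0.16 for Foxl1, -0.021 for Wnt5a, 0.075 for Bmp7, 0.019 for Bmp4, -0.064 for Cd34, 0.029 for Wnt2b, 0.0031 for Nes, -0.011 for Lum and -0.015 for Dpt. With members of 2 or more UMIs it was 0.26 for Igkc, -0.17 for Glp2r and -0.016 for Cd34, and with lineage by cluster name 0.021 for Igkc and 0.056 for Nes. Foxl1 was 0.016 without Scrublet doublets and 0.025 under stricter cell filters, where Bmp7 was 0.010. Bmp7 was 0.046 without several hashtags, Pi16 0.027 with 1 comparison cell and Nes 0.0091 in limma-voom. In lymphatic cells Fos was 0.080 and Cxcl10 0.40 with cells of both markers kept, Cxcl10 0.33 and Igkc 0.16 with lineage by cluster name, and Igkc 0.15 within clusters. The bowel interaction of Grem1 was 0.38 within clusters. On leaving out a library, ranges were -0.067 to 0.33 for Nrg1, -0.13 to 0.034 for Foxl1, -0.18 to 0.02 for Bmp7, -0.39 to 0.28 for the bowel interaction of Tslp, -0.47 to 0.80 for Tslp between distal and proximal members and -3.32 to 0.30 for Lgr5 between large bowel and small intestine. The cause of these differences was not tested.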
